A study of Mus musculus with 12 samples.

Results

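The difference between 2 LPS responses was measured: how far each gene moved in dendritic cells when lipopolysaccharide (LPS) was added, minus how far it moved in macrophages of the same kind of culture. It was computed on all 12 arrays of the series and for all 19938 genes that a probe set names alone. Marrow from the tibia and femur of C57B/6 mice had been kept for 6 days with 20 ng/ml recombinant GM-CSF, a myeloid growth factor. The 4 groups held 3 arrays each: unstimulated dendritic cells (GM-DC), GM-DC after 4 hours with 10 ng/ml LPS, unstimulated macrophages (GM-MF), and GM-MF after 4 hours with 10 ng/ml LPS. All groups shared the strain and the growth factor, no genetic change is named, and how GM-DC were parted from GM-MF is not given in the sources used here. The labels do not say that arrays of a group came from separate mice or cultures, so each p-value is measured against array-to-array spread, and that may be technical.

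LPS, a component of the outer membrane of Gram-negative bacteria, is sensed by Toll-like receptor 4 with its co-receptors. The receptor signals through the adaptor MyD88 at the cell surface, which leads to NF-kB and inflammatory cytokines, and through TRIF from endosomes, which leads to interferon beta. Secreted interferon beta acts back on cells through its receptor and switches on a large set of antiviral genes, and dendritic cells that mature in response gain CCR7, costimulatory ligands and the ability to prime T cells.

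Values are log2 expression as deposited, a response is the mean with LPS minus the mean without, and a difference is the GM-DC response minus the GM-MF response, so that a positive difference means a higher response in GM-DC. Called genes are those with an adjusted p under 0.05 in limma (Benjamini-Hochberg over the 19938 genes). Intervals and adjusted p-values come from that fit unless an array was left out, and a difference printed without either was called unless stated otherwise. The array medians lay between 4.41 and 4.54 and no background call was made, so a fold that starts near that level is a ratio of signals, the lower of which was not shown to lie above background. The general lineage markers separated the cell types as labelled: the mean of 10 dendritic cell markers was 7.93 in unstimulated GM-DC and 4.49 in unstimulated GM-MF, and the mean of 9 macrophage markers was 5.90 and 10.08. Subset markers did not all follow. In the same order, means were 5.52 and 5.82 for the dendritic cell subset cDC1 and 5.82 and 6.76 for cDC2. Those of plasmacytoid dendritic cell markers were 6.58 and 6.24, and those of monocyte markers 4.83 and 6.47. The log2 of the summed unlogged levels, which follows the highest members, gave the opposite order for cDC1, at 11.21 and 9.60. By that measure cDC2 markers stood at 10.20 and 11.82, plasmacytoid ones at 11.75 and 11.78, and monocyte ones at 7.39 and 9.28. Among single markers, Flt3 stood at 8.59 and 4.26 and Csf1r at 6.60 and 11.24. Array 2 of unstimulated GM-MF carried more of several LPS-induced transcripts than arrays 1 and 3 (Nos2 8.43 against 6.15 and 6.11). Values without it are given for some, not all, of the genes whose difference it moved. Nos2, Il6 and Ccr7 had larger differences in size without it, and Ccl8 a smaller one.

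The 2 cell types responded to LPS differently at many genes. The difference of responses was called for 1514 genes, 7.59% of all tested. The GM-DC response was the higher one for 904 of them (4.53%) and the lower one for 610 (3.06%). At least 2-fold differences were called for 379 genes (1.9%) in the first direction and 270 (1.35%) in the second. Differences of at least 8-fold were found for 21 and 12 genes. Within each cell type, 1042 genes (5.23%) rose and 896 (4.49%) fell with LPS in GM-DC, and 1304 (6.54%) rose and 2157 (10.8%) fell in GM-MF. After cyclic loess scaling between arrays 1627 rose and 1665 fell in GM-MF. The count that fell in GM-DC rested on single arrays: it was 521 without unstimulated GM-DC array 1, 551 without unstimulated array 2 and 592 without LPS array 1. Across all genes the responses of the 2 cell types, which share no arrays, correlated at r = 0.395 (Pearson, over genes, which are not independent replicates).

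Few of the called genes moved in opposite directions. Of the 904 genes with a higher GM-DC response, 428 fell in GM-MF and were not called in GM-DC, and 261 rose in GM-DC and were not called in GM-MF. A further 67 rose in both cell types and more so in GM-DC, 69 rose in GM-DC and fell in GM-MF, 51 fell in both, and 28 were called in neither arm. Among the 610 genes with a lower GM-DC response, 391 rose in GM-MF and were not called in GM-DC, 94 fell in GM-DC and were not called in GM-MF, and 61 rose in both and more so in GM-MF. The remaining genes of that direction were 34 that fell in GM-DC and rose in GM-MF, 4 that fell in both and 26 called in neither arm.

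**Figure D1:**
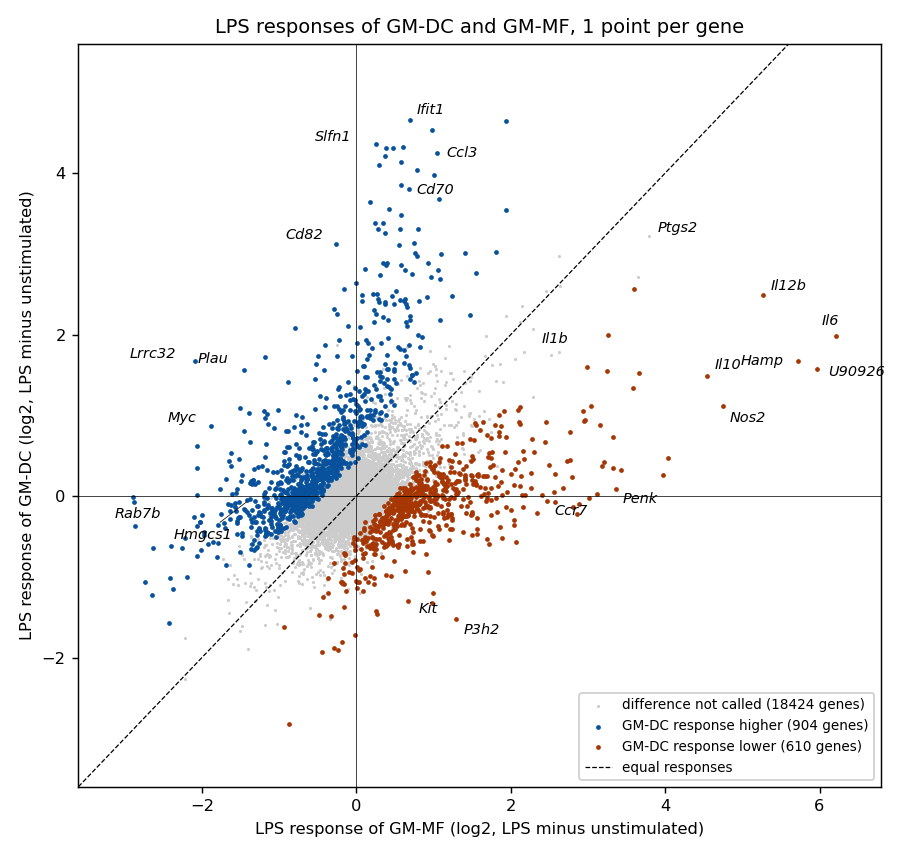
Each point is 1 of 19938 genes, placed by its LPS response in GM-MF (x axis) and in GM-DC (y axis), both as log2 with LPS minus unstimulated, with the dashed line marking equal responses. Genes with a called difference lie off the line: 904 above it (blue), led by Slfn1 and Ifit1, and 610 below it (brown), led by U90926 and Il6.

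**Figure D2:**
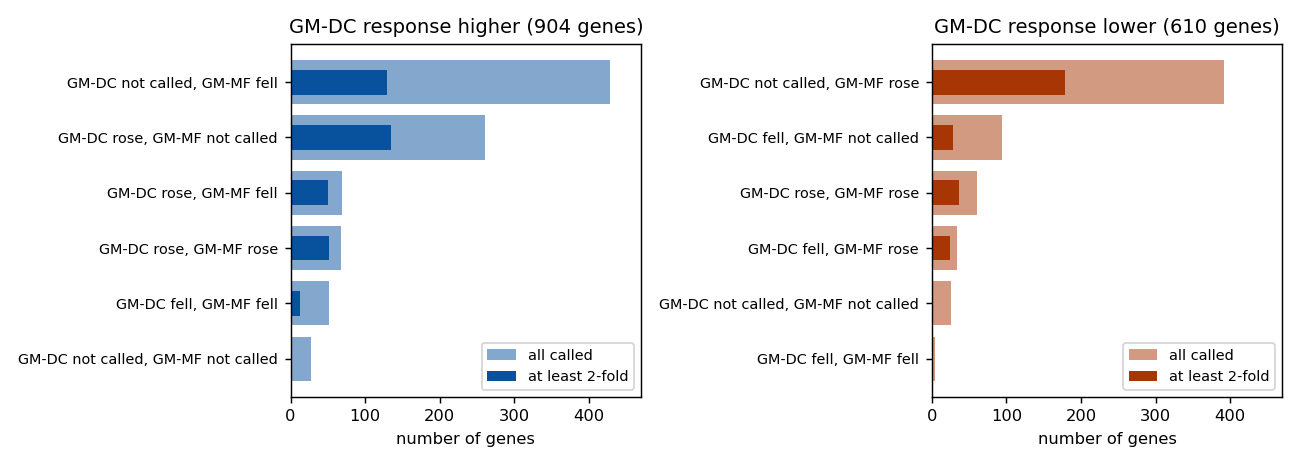
Bars count the called genes by what each arm did (wide bars, all called; narrow bars, differences of at least 2-fold), with the 904 genes of higher GM-DC response on the left and the 610 of lower response on the right. The longest bars are 428 genes that fell in GM-MF alone among calls and 391 that rose in GM-MF alone among calls.

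Of 40 gene lists, that of antiviral interferon-stimulated genes had the most members with a higher response in GM-DC. Of 37 measured members, 30 had a higher GM-DC response, each by at least 2-fold, 1 (Mx1) had a lower one and 6 were not called, against 4.53% and 3.06% of all genes. Their median response was 2.77 in GM-DC and 0.568 in GM-MF, and the median difference was 1.86, against 0.0212 over all genes. With LPS, 35 of the 37 rose in GM-DC and 19 in GM-MF, against 5.23% and 6.54% of all genes. The mean level of the list was 5.90, 6.03 and 5.74 in unstimulated GM-DC, 8.34, 8.79 and 8.31 in GM-DC with LPS, 9.72, 9.78 and 9.80 in unstimulated GM-MF, and 10.39, 10.35 and 10.40 in GM-MF with LPS. Every GM-DC array with LPS thus lay below every unstimulated GM-MF array. In bulk RNA, fewer cells that express these genes and less RNA per cell cannot be told apart.

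The sequence that interferon-activated STAT and IRF factors bind, the interferon-stimulated response element (ISRE), stood in the promoters of some genes of this list. It was searched as GAAANNGAA on both strands, allowing overlap, in the RefSeq windows from 250 bases before to 50 after each start (build GRCm38.p6). Such a match stood in 48.6% of 35 windows of the antiviral list, in 16.4% of 402 windows of genes with an at least 2-fold higher GM-DC response, in 8.11% of 259 windows of those with a lower one and in 7.84% of all 19177 windows. Shown are a gene with 3 matches, Ifit1, a gene with 2, Irgm1, and Cxcl10, which holds an ISRE match and 3 matches of the kB motif bound by NF-kB, 2 of which overlap. The stretches lie upstream of the start of transcription and are written 5′ to 3′ on the strand of the gene, with the matches in capitals. For Ifit1 the stretch is chr19:34640759-34640848 (plus strand, 130 to 41 bases before the start), for Irgm1 chr11:48871421-48871510 (minus strand, 90 to 1 bases before) and for Cxcl10 chr5:92348975-92349114 (minus strand, 225 to 86 bases before).
Ifit1: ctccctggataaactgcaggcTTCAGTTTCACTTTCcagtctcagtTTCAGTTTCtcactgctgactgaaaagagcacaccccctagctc
Irgm1: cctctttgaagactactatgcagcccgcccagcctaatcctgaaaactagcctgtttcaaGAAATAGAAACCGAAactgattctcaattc
Cxcl10: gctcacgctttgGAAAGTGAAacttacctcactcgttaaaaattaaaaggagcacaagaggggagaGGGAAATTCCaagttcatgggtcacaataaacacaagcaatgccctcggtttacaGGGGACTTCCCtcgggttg
The windows of Slfn1, Xaf1, Ifit2 and Oasl2, which are also high in the order of differences, held no ISRE match. A match is a run of letters and was not tested as a binding site here.

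Slfn1, of the Schlafen family that restrains growth and viral replication, had the largest positive difference among the named genes. It was measured at 4.48, 4.20 and 3.92 in unstimulated GM-DC, 8.57, 9.28 and 7.82 in GM-DC with LPS, 10.50, 10.79 and 10.68 in unstimulated GM-MF, and 10.87, 10.89 and 10.98 in GM-MF with LPS. The 4 groups did not overlap, and GM-DC with LPS stayed below unstimulated GM-MF. LPS moved it by 4.36 in GM-DC and 0.25 in GM-MF, a difference of 4.10 (95% interval 3.32 to 4.88, adjusted p = 5.32e-06). Ifit1, whose product binds viral RNA that lacks the host cap modification, was measured at 4.40, 4.69 and 4.23 in unstimulated GM-DC, 9.0, 9.49 and 8.81 in GM-DC with LPS, 11.06, 11.07 and 11.04 in unstimulated GM-MF, and 11.79, 11.69 and 11.77 in GM-MF with LPS. It kept the same order of groups, with no overlap and a difference of 3.97 (95% interval 3.51 to 4.43, adjusted p = 1.51e-07). Irgm1, an immunity-related GTPase that acts on membranes around intracellular pathogens, had values of 5.17, 5.55 and 4.37 in unstimulated GM-DC, 9.42, 9.95 and 9.33 in GM-DC with LPS, 10.58, 10.37 and 10.43 in unstimulated GM-MF, and 11.54, 11.27 and 11.50 in GM-MF with LPS. All 3 GM-DC arrays with LPS were at least 3 log2 units above the unstimulated ones, and the difference was 3.56 (95% interval 2.86 to 4.27, adjusted p = 7.89e-06). Guanylate-binding proteins and immunity GTPases did not all go this way. Of 9 measured, 2 had a higher and 4 a lower GM-DC response, against 4.53% and 3.06% of all genes, with a median difference of -0.391. The higher count fell to 1 without some single arrays, and the lower count to 2 without some.

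Other leading members lay close to these. Xaf1, Samd9l, Rtp4, Ifit2, Oasl2 and Trim30d are induced by interferon and had differences between 3.46 (Trim30d) and 3.84 (Xaf1). Their GM-DC responses lay between 3.65 and 4.33, and of their GM-MF responses only that of Ifit2 was called (0.61, adjusted p = 0.0208). Rtp4, a chaperone of chemosensory receptors, stood at 3.88, 3.12 and 3.14 in unstimulated GM-DC, 7.13, 7.99 and 7.34 in GM-DC with LPS, 10.75, 10.73 and 10.90 in unstimulated GM-MF, and 11.11, 11.05 and 11.10 in GM-MF with LPS. Its 4 groups were separate and in the same order. Ifi207, a member of the DNA-sensing PYHIN family outside the list, had a difference of 3.94 (95% interval 3.46 to 4.41, adjusted p = 1.51e-07). Mx1, a dynamin-like antiviral GTPase whose gene is known to be defective in most inbred laboratory strains, went against the list. It was measured at 9.18, 9.18 and 9.16 in unstimulated GM-DC, 9.74, 9.85 and 9.91 in GM-DC with LPS, 9.36, 9.42 and 9.39 in unstimulated GM-MF, and 10.77, 10.61 and 10.68 in GM-MF with LPS, with 0.66 in GM-DC and 1.30 in GM-MF as responses and a difference of -0.64 (95% interval -0.91 to -0.37, adjusted p = 0.00483). The 6 members with no call in the difference were Isg20, Oas2, Bst2, Ifi44l, Ifitm3 and Herc6, with differences from -0.43 to 0.40. Without GM-DC LPS array 2, Isg20 joined Mx1 among members with a lower GM-DC response, 2 in place of 1.

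The sensors and the signalling factors that feed the antiviral programme moved with it in part. Ddx58, which encodes the RNA sensor RIG-I, stood at 4.32, 4.58 and 4.09 in unstimulated GM-DC, 7.67, 8.18 and 7.31 in GM-DC with LPS, 10.21, 10.20 and 10.33 in unstimulated GM-MF, and 10.68, 10.45 and 10.64 in GM-MF with LPS. Its groups did not overlap and its difference was 3.04 (95% interval 2.50 to 3.58, adjusted p = 3.24e-06). The related Ifih1 (MDA5) and Dhx58 (LGP2), the nucleic acid sensor Zbp1 and the DNA sensor Cgas had differences of 1.95, 2.40, 2.01 and 1.35. Of 20 measured pattern receptors other than Toll-like receptor 4, 8 had a higher GM-DC response and 1 (Nod2) a lower one. Over all genes the shares were 4.53% and 3.06%. The lower count was 0 after median centring and without any 1 of several arrays. It was 2 after cyclic loess, with array weights and with the replicate block within cell type. Nod2 lost its call without any 1 of 9 arrays and with the replicate block (adjusted p = 0.0644 in limma with the block, 0.0452 without). Irf7, the factor that amplifies interferon production, was measured at 4.42, 4.89 and 4.65 in unstimulated GM-DC, 7.58, 8.37 and 7.94 in GM-DC with LPS, 10.05, 10.08 and 10.17 in unstimulated GM-MF, and 10.92, 10.94 and 10.82 in GM-MF with LPS, a difference of 2.51 (95% interval 2.01 to 3.01, adjusted p = 8.1e-06). Stat2 differed by 1.89 (95% interval 1.55 to 2.23, adjusted p = 3.63e-06) and Irf9 by 0.62. In the same list of 21 interferon receptors, kinases, STATs and IRFs, 6 genes went the other way, among them Jak2 (-1.41) and Stat3 (-0.82). Of that list 14.3% had a higher and 28.6% a lower GM-DC response, against 4.53% and 3.06% of all genes.

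Interferon beta itself and some other interferon-inducible genes had the higher response in GM-MF. Ifnb1 was measured at 2.91, 2.90 and 3.23 in unstimulated GM-DC, 3.93, 3.99 and 3.91 in GM-DC with LPS, 4.25, 4.13 and 5.14 in unstimulated GM-MF, and 7.42, 7.12 and 7.83 in GM-MF with LPS. Every group was separate, GM-MF with LPS was the highest, and the difference was -2.02 (95% interval -2.70 to -1.34, adjusted p = 0.000869). Both GM-DC groups lay under the array medians. Iigp1, a GTPase that attacks the vacuoles of intracellular parasites, stood at 3.59, 3.16 and 3.69 in unstimulated GM-DC, 3.70, 4.15 and 3.88 in GM-DC with LPS, 6.47, 6.55 and 6.44 in unstimulated GM-MF, and 9.39, 9.04 and 9.21 in GM-MF with LPS. Its GM-MF response was called and its GM-DC response was not (0.43 in GM-DC and 2.73 in GM-MF), a difference of -2.30 (95% interval -2.75 to -1.85, adjusted p = 6.66e-06). The chemokines Cxcl9 and Cxcl11, which draw T cells through CXCR3, differed by -1.97 (95% interval -2.52 to -1.42, adjusted p = 0.000183) and -1.99 (95% interval -2.50 to -1.49, adjusted p = 7.48e-05). Cxcl10, a ligand of the same receptor, went the opposite way: it was measured at 5.94, 6.35 and 6.92 in unstimulated GM-DC, 9.01, 9.46 and 9.77 in GM-DC with LPS, 11.94, 12.16 and 12.12 in unstimulated GM-MF, and 12.84, 12.77 and 12.91 in GM-MF with LPS, and its difference was 2.24 (95% interval 1.60 to 2.88, adjusted p = 0.000219). Gbp11, a guanylate-binding protein, also had the lower GM-DC response (-1.35).

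**Figure D3:**
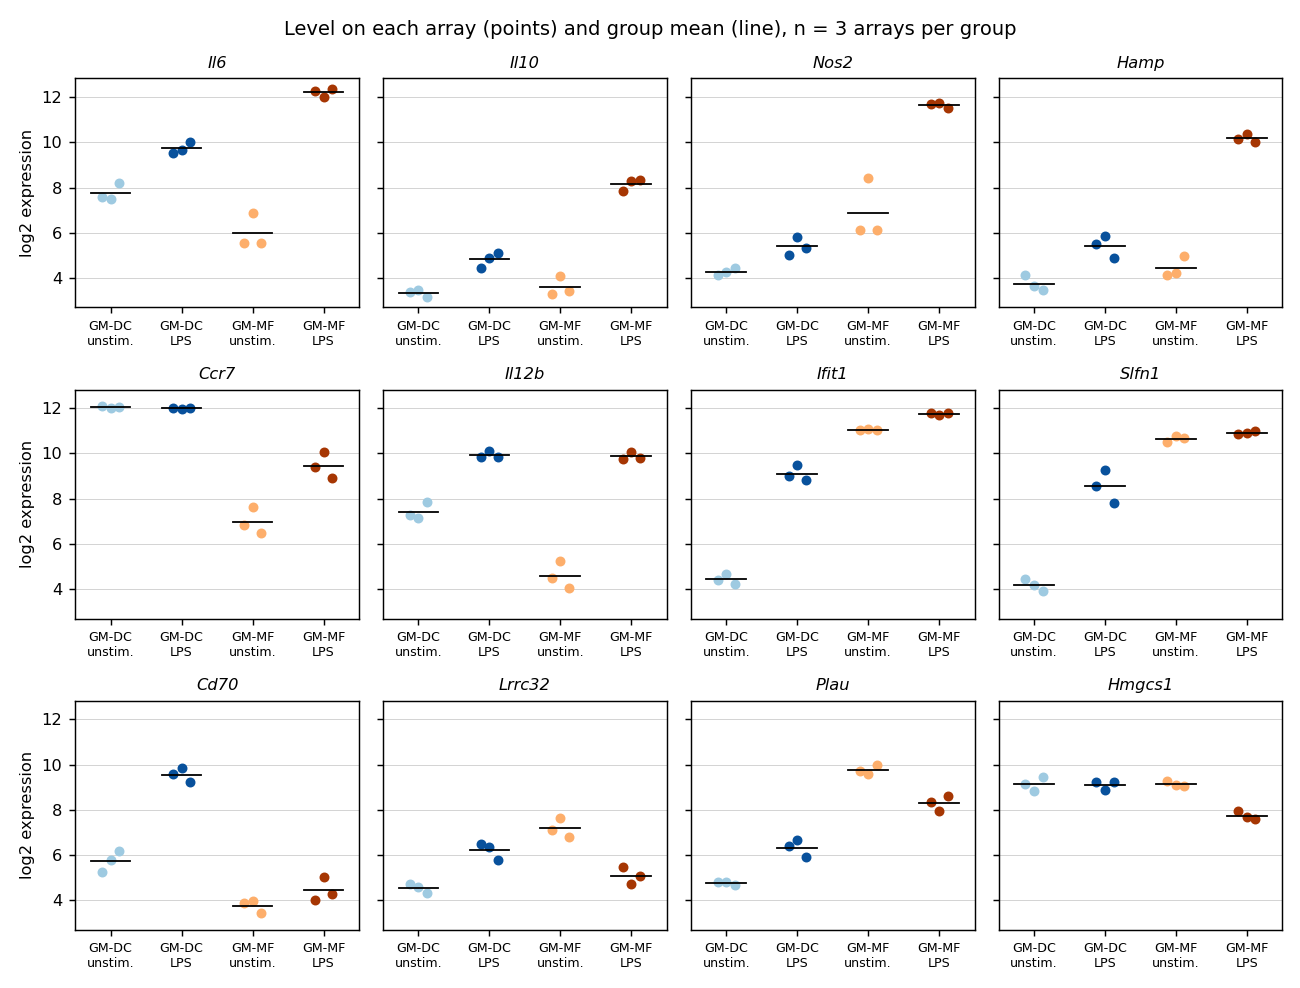
Points are the log2 expression of 12 named genes on each of the 12 arrays, and lines are the means of 3 arrays per group (light blue and dark blue, GM-DC without and with LPS; orange and brown, GM-MF without and with LPS). Il6, Il10, Nos2 and Hamp rose furthest in GM-MF, Ccr7 rose in GM-MF and was not called in GM-DC, Ifit1 and Slfn1 rose in GM-DC to a level below unstimulated GM-MF, and Lrrc32 and Plau moved in opposite directions.

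More cytokines had a lower than a higher response in GM-DC. Of 30 measured cytokines, 11 (36.7%) had a lower GM-DC response, each by at least 2-fold, and 4 (13.3%) a higher one. Over all genes the shares were 3.06% and 4.53%. With only the genes whose mean lies above the median of all genes, 6 cytokines had a lower GM-DC response. With LPS, 18 of the 30 rose in GM-DC and 22 in GM-MF, with median responses of 0.879 and 1.34. Over all genes 5.23% rose in GM-DC and 6.54% in GM-MF. The kB motif, searched on both strands, stood in 30% of 30 windows of cytokine promoters, in 20% of 35 windows of the antiviral list and in 9.55% of all windows. It stood in 12.4% of windows of genes with an at least 2-fold higher GM-DC response and in 11.6% of those with a lower one. Il6 is shown as the cytokine with the largest difference and Ifnb1 for its place at the head of the interferon response, both with 1 match in capitals. The Il6 stretch is chr5:30013024-30013113 (plus strand, 90 to 1 bases before the start) and the Ifnb1 stretch chr4:88522855-88522944 (minus strand, 150 to 61 bases before).
Il6: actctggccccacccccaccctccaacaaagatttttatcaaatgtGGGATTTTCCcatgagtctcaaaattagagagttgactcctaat
Ifnb1: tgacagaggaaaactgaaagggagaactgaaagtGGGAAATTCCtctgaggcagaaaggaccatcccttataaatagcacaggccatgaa
NF-kB binding to these stretches was not measured here.

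Il6, a cytokine that drives the acute phase response and T-helper differentiation, was measured at 7.57, 7.48 and 8.20 in unstimulated GM-DC, 9.51, 9.67 and 10.02 in GM-DC with LPS, 5.57, 6.88 and 5.57 in unstimulated GM-MF, and 12.28, 12.02 and 12.36 in GM-MF with LPS. Unstimulated GM-MF were the lowest group and GM-MF with LPS the highest, with both GM-DC groups between them and no overlap. LPS raised Il6 3.96-fold in GM-DC and 74.3-fold in GM-MF, a difference of -4.23 (95% interval -5.11 to -3.35, adjusted p = 1.26e-05). Without unstimulated GM-MF array 2 the difference was -4.67 (adjusted p = 7.87e-07). Il10, the cytokine that restrains macrophage and dendritic cell activation, was measured at 3.39, 3.46 and 3.17 in unstimulated GM-DC, 4.45, 4.91 and 5.12 in GM-DC with LPS, 3.32, 4.12 and 3.44 in unstimulated GM-MF, and 7.87, 8.31 and 8.34 in GM-MF with LPS. The unstimulated groups overlapped, and with LPS every GM-MF array was above every GM-DC array. The Il10 difference was -3.06 (95% interval -3.69 to -2.43, adjusted p = 1.2e-05), and without that array -3.30 (adjusted p = 5.19e-06).

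The subunits of interleukin 12, which drives T-helper type I immunity, split by level. Il12b, the shared p40 subunit, was measured at 7.27, 7.15 and 7.88 in unstimulated GM-DC, 9.84, 10.10 and 9.84 in GM-DC with LPS, 4.49, 5.25 and 4.05 in unstimulated GM-MF, and 9.76, 10.07 and 9.78 in GM-MF with LPS. The groups with LPS overlapped, while GM-DC started higher, and the difference was -2.78 (95% interval -3.52 to -2.04, adjusted p = 0.000119), or -3.11 (adjusted p = 1.26e-05) without unstimulated GM-MF array 2. Il12a, the p35 subunit, stood at 3.44, 3.48 and 3.76 in unstimulated GM-DC, 3.55, 4.02 and 4.22 in GM-DC with LPS, 4.35, 5.33 and 4.64 in unstimulated GM-MF, and 7.92, 7.90 and 8.04 in GM-MF with LPS. It rose in GM-MF and was not called in GM-DC (0.37 in GM-DC and 3.18 in GM-MF), a difference of -2.81 (95% interval -3.44 to -2.17, adjusted p = 2.72e-05). Il23a, the p19 subunit that pairs with p40 to form interleukin 23, had the higher response in GM-DC: its values were 4.89, 4.13 and 4.65 in unstimulated GM-DC, 7.24, 7.40 and 7.12 in GM-DC with LPS, 4.67, 4.77 and 4.48 in unstimulated GM-MF, and 5.55, 5.40 and 6.20 in GM-MF with LPS, and its difference was 1.61 (95% interval 1.00 to 2.23, adjusted p = 0.00229). The highest Il23a values were those of the 3 GM-DC arrays with LPS. Ebi3, the subunit shared by interleukins 27 and 35, differed by 1.05 (95% interval 0.65 to 1.44, adjusted p = 0.00214), and its partner Il27 by -2.28 in the opposite direction.

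Among other cytokines, Il19, a relative of interleukin 10, was measured at 3.47, 3.35 and 3.42 in unstimulated GM-DC, 3.76, 4.16 and 3.75 in GM-DC with LPS, 3.66, 3.54 and 3.57 in unstimulated GM-MF, and 7.53, 7.35 and 8.0 in GM-MF with LPS. The other 3 groups lay under the array medians, GM-MF with LPS far above them, and the difference was -3.56 (95% interval -4.02 to -3.10, adjusted p = 2.02e-07). Il1f6 (interleukin 36 alpha), outside the list, had values of 3.22, 3.19 and 3.04 in unstimulated GM-DC, 3.30, 3.46 and 3.49 in GM-DC with LPS, 4.80, 3.97 and 4.49 in unstimulated GM-MF, and 8.52, 7.97 and 8.69 in GM-MF with LPS and a difference of -3.71 (95% interval -4.30 to -3.12, adjusted p = 1.55e-06). Il33, Csf3 and Il18 also rose in GM-MF, with differences of -2.50, -1.59 and -2.40, and none of the 3 was called in GM-DC. Tnf, a cytokine of acute inflammation, had the higher response in GM-DC: it was measured at 5.30, 5.35 and 6.71 in unstimulated GM-DC, 8.64, 8.65 and 8.49 in GM-DC with LPS, 10.78, 11.02 and 10.71 in unstimulated GM-MF, and 11.99, 11.72 and 11.98 in GM-MF with LPS. GM-DC with LPS remained below unstimulated GM-MF, and the difference was 1.74 (95% interval 0.93 to 2.55, adjusted p = 0.00928).

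Chemokines, which draw leukocytes to a site, went both ways. Ccl3, which attracts monocytes and T cells, was measured at 6.52, 6.91 and 6.69 in unstimulated GM-DC, 11.04, 11.16 and 10.65 in GM-DC with LPS, 11.63, 11.76 and 11.90 in unstimulated GM-MF, and 12.83, 12.70 and 12.91 in GM-MF with LPS. It rose 19.0-fold in GM-DC and 2.07-fold in GM-MF, with no overlap between groups and a difference of 3.20 (95% interval 2.77 to 3.62, adjusted p = 2.17e-07). The monocyte attractant Ccl2 and the neutrophil attractant Cxcl2 had differences of 1.61 (95% interval 1.00 to 2.22, adjusted p = 0.00229) and 1.91 (95% interval 1.09 to 2.72, adjusted p = 0.00530). In the other direction Ccl7, also a monocyte attractant, differed by -1.93 (95% interval -2.71 to -1.14, adjusted p = 0.00360) and Ccl8 by -2.63 (95% interval -3.81 to -1.44, adjusted p = 0.00761). Without unstimulated GM-MF array 2 the Ccl8 difference was -2.13 (adjusted p = 0.0105). Ccl12 and Ccl5 had differences of -1.79 and -1.27. Ccl5 was measured at 12.72, 12.71 and 12.58 in unstimulated GM-DC, 12.87, 12.81 and 12.77 in GM-DC with LPS, 11.34, 11.82 and 11.37 in unstimulated GM-MF, and 12.91, 12.92 and 12.96 in GM-MF with LPS: GM-DC held it near the top of the scale with and without LPS (its GM-DC response, 0.15, was not called), and GM-MF with LPS lay above both. Of 16 CC chemokines 3 had a higher and 5 a lower GM-DC response, and of 13 CXC chemokines 2 and 4. Over all genes the shares were 4.53% and 3.06%.

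Several enzymes of innate effector chemistry had large differences, in both directions. Nos2, the inducible nitric oxide synthase, was measured at 4.13, 4.26 and 4.47 in unstimulated GM-DC, 5.02, 5.84 and 5.35 in GM-DC with LPS, 6.15, 8.43 and 6.11 in unstimulated GM-MF, and 11.68, 11.75 and 11.50 in GM-MF with LPS. GM-MF with LPS were the highest group, the groups did not overlap, and the difference was -3.63 (95% interval -4.95 to -2.31, adjusted p = 0.00164); without unstimulated GM-MF array 2 it was -4.40 (adjusted p = 7.87e-07). Gch1, which makes the cofactor of that synthase, went the other way: its values were 6.42, 6.23 and 6.13 in unstimulated GM-DC, 9.20, 9.37 and 8.80 in GM-DC with LPS, 9.98, 9.79 and 9.97 in unstimulated GM-MF, and 10.26, 10.18 and 10.46 in GM-MF with LPS, and its difference was 2.47 (95% interval 2.05 to 2.90, adjusted p = 2.35e-06). Acod1, which makes itaconate, stood at 5.32, 5.79 and 6.33 in unstimulated GM-DC, 7.62, 7.98 and 8.30 in GM-DC with LPS, 12.39, 12.51 and 12.42 in unstimulated GM-MF, and 12.70, 12.60 and 12.70 in GM-MF with LPS. Its GM-DC response was called and its GM-MF response was not (2.16 in GM-DC and 0.23 in GM-MF), a difference of 1.92 (95% interval 1.31 to 2.54, adjusted p = 0.000583). Hdc, the histamine-forming enzyme, and Ptges, which makes prostaglandin E, rose in GM-MF, with differences of -3.11 (95% interval -3.63 to -2.58, adjusted p = 2.25e-06) and -1.64 (95% interval -2.10 to -1.18, adjusted p = 0.000187). Hdc also stands among 10 markers of mast cells and basophils, of which it alone was called, with a lower GM-DC response. The log2 of the summed unlogged levels of that list, which follows the highest members, was 7.15 and 7.12 in GM-DC without and with LPS. In GM-MF it was 7.18 and 8.67, and the part of such cells in the result was not tested. Ch25h, which hydroxylates cholesterol, differed by -2.17 (95% interval -2.74 to -1.61, adjusted p = 9.13e-05), and Gpr183, a receptor for the oxysterols made from its product, by 2.68 (95% interval 2.08 to 3.27, adjusted p = 2.35e-05).

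Most iron-handling genes with a called difference had the higher response in GM-MF. Of 17 measured members, 7 had a lower GM-DC response and 2 a higher one, against 3.06% and 4.53% of all genes. The median difference of the list was -0.400. With LPS, 8 rose in GM-MF and 3 in GM-DC, against 6.54% and 5.23% of all genes. Hamp, which encodes hepcidin, the hormone that closes the iron exporter ferroportin, was measured at 4.12, 3.66 and 3.48 in unstimulated GM-DC, 5.52, 5.85 and 4.90 in GM-DC with LPS, 4.15, 4.25 and 4.97 in unstimulated GM-MF, and 10.16, 10.37 and 10.0 in GM-MF with LPS. GM-MF with LPS stood at least 4 log2 units above all other arrays, and the difference was -4.05 (95% interval -4.80 to -3.30, adjusted p = 4.36e-06). Cp (ceruloplasmin, a ferroxidase) and Lcn2 (lipocalin, which binds bacterial siderophores) differed by -2.58 and -2.14, and the metallothioneins Mt1 and Mt2 by -0.86 and -0.98. Slc40a1, which encodes ferroportin, fell in GM-MF and was not called in GM-DC (-0.32 in GM-DC and -2.03 in GM-MF), a difference of 1.70 (95% interval 1.15 to 2.26, adjusted p = 0.000644). Tfrc, the transferrin receptor, rose in GM-DC and fell in GM-MF (0.46 in GM-DC and -1.52 in GM-MF), a difference of 1.98 (95% interval 1.62 to 2.34, adjusted p = 4.04e-06).

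Genes of dendritic cell maturation stood higher in GM-DC and more of them rose in GM-MF. Their mean level was 9.95 and 10.11 in GM-DC without and with LPS and 7.36 and 7.99 in GM-MF. Of 23 measured members, 8 had a lower GM-DC response and 1 (Ebi3) a higher one, against 3.06% and 4.53% of all genes. With LPS, 10 rose in GM-MF and 4 in GM-DC, against 6.54% and 5.23% of all genes. The 8 became 4 without GM-DC LPS array 2 and 5 without any 1 of the 3 unstimulated GM-DC arrays, GM-DC LPS array 1, unstimulated GM-MF arrays 1 or 3, or GM-MF LPS array 2. Ccr7, the receptor that leads dendritic cells to lymph nodes, was measured at 12.10, 12.01 and 12.06 in unstimulated GM-DC, 12, 11.97 and 12.03 in GM-DC with LPS, 6.86, 7.62 and 6.49 in unstimulated GM-MF, and 9.39, 10.06 and 8.91 in GM-MF with LPS. Both GM-DC groups overlapped at the top and GM-MF rose towards them without reaching them, a difference of -2.52 (95% interval -3.32 to -1.73, adjusted p = 0.000513). Without unstimulated GM-MF array 2 it was -2.84 (adjusted p = 8.56e-05). Cd80, a costimulatory ligand of CD28, had values of 8.95, 8.78 and 9.15 in unstimulated GM-DC, 10.64, 10.72 and 10.32 in GM-DC with LPS, 6.05, 5.88 and 6.37 in unstimulated GM-MF, and 9.05, 9.15 and 9.07 in GM-MF with LPS. It rose in both cell types (1.60 in GM-DC and 2.99 in GM-MF), with a difference of -1.39 (95% interval -1.82 to -0.96, adjusted p = 0.000411). Gadd45b, a stress-induced signalling protein, rose in GM-MF and was not called in GM-DC, a difference of -1.71 (95% interval -2.09 to -1.33, adjusted p = 2.33e-05).

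Of 24 measured dendritic cell lineage genes, 3 (12.5%) had a lower and 1 (4.17%) a higher GM-DC response, against 3.06% and 4.53% of all genes. The other 20 were not called, and the median difference was -0.063. The higher count was 4 with a variance trend. The lower count was 5 without GM-DC LPS array 3 and 5 with the replicate block within cell type. Irf8, a transcription factor needed for dendritic cell development, was measured at 10.63, 10.57 and 10.93 in unstimulated GM-DC, 10.63, 10.70 and 10.82 in GM-DC with LPS, 7.85, 8.02 and 8.0 in unstimulated GM-MF, and 9.50, 9.75 and 9.47 in GM-MF with LPS. The GM-DC groups overlapped, GM-MF rose, and the difference was -1.61 (95% interval -1.97 to -1.25, adjusted p = 2.33e-05). Il2ra, the interleukin 2 receptor alpha chain, and Stat4 rose in GM-MF and had differences of -1.75 and -0.96. Kit, the stem cell factor receptor, fell in GM-DC and rose in GM-MF: it stood at 6.99, 7.24 and 7.77 in unstimulated GM-DC, 5.90, 5.85 and 6.66 in GM-DC with LPS, 4.36, 4.34 and 4.12 in unstimulated GM-MF, and 5.25, 5.26 and 5.29 in GM-MF with LPS, a difference of -2.19 (95% interval -2.81 to -1.57, adjusted p = 0.000208). Over the whole list of 10 dendritic cell markers, 7 rose in GM-MF and 1 in GM-DC, and 3 had a lower GM-DC response (5 without GM-MF LPS array 3, and 5 with the replicate block within cell type). Among all genes 6.54% rose in GM-MF, 5.23% rose in GM-DC and 3.06% had a lower GM-DC response. The mean log2 level of the 10 dendritic cell markers went from 4.49 to 5.315 in GM-MF and from 7.93 to 7.96 in GM-DC. The log2 of their summed unlogged levels, which follows the highest members, went from 8.30 to 10.05 in GM-MF and from 13.4 to 13.5 in GM-DC. That of the 9 macrophage markers went from 13.72 to 13.65 in GM-MF and from 10.06 to 10.01 in GM-DC. Flt3 was at 4.26 and 4.07 in GM-MF without and with LPS, under the array medians in both. The part of admixed cells in these differences was not tested.

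**Figure D4:**
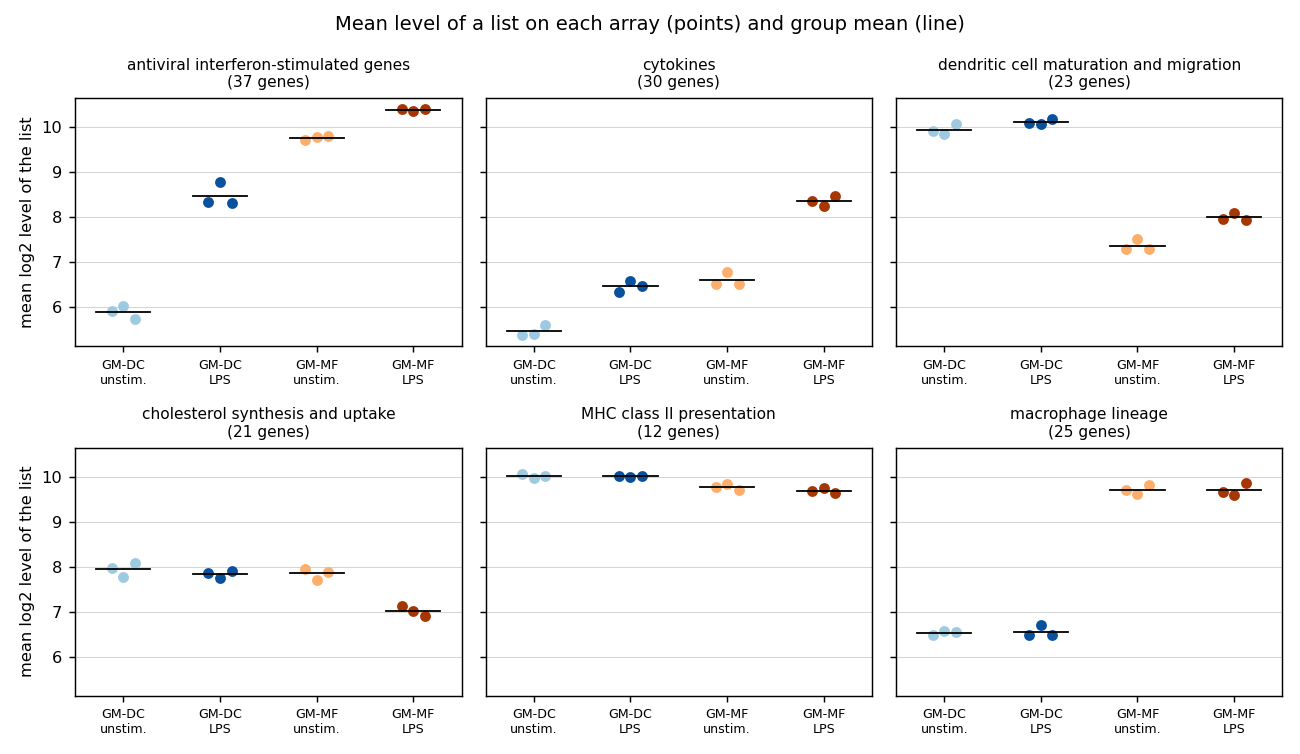
Points are the mean log2 level of 6 gene lists on each array, and lines are the means of 3 arrays per group. The mean of the antiviral list went from 5.89 to 8.48 in GM-DC and from 9.77 to 10.38 in GM-MF, that of the cholesterol list from 7.94 to 7.84 and from 7.85 to 7.02, and that of MHC class II from 10.02 to 10.01 and from 9.76 to 9.69.

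Costimulatory ligands did not all follow Cd80. Cd70, the ligand of CD27 on T cells, was measured at 5.25, 5.77 and 6.20 in unstimulated GM-DC, 9.58, 9.85 and 9.22 in GM-DC with LPS, 3.88, 3.98 and 3.45 in unstimulated GM-MF, and 4.03, 5.06 and 4.27 in GM-MF with LPS. GM-DC with LPS lay more than 3 log2 units above the highest value of any other group, and the difference was 3.12 (95% interval 2.32 to 3.93, adjusted p = 9.18e-05). Tnfsf9 (the ligand of 4-1BB) and Lgals9 (galectin 9) also had higher GM-DC responses, by 2.18 (95% interval 1.52 to 2.84, adjusted p = 0.000362) and 2.03. Tnfsf8, the ligand of CD30, went the other way, by -1.70 (95% interval -2.50 to -0.89, adjusted p = 0.0104). Of 25 measured members 4 had a higher and 6 a lower GM-DC response, against 4.53% and 3.06% of all genes. None of 12 MHC class II genes and none of 16 MHC class I and immunoproteasome genes was called by limma in the difference. As 7.59% of all genes were called, no call in lists of this size lies near that share. H2-Ab1, an MHC class II chain, differed by 0.06 (95% interval -0.19 to 0.32, adjusted p = 0.877), and B2m, the light chain of MHC class I, by -0.02 (95% interval -0.28 to 0.24, adjusted p = 0.977).

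Tlr4, the receptor, had no called difference. It was measured at 6.65, 6.65 and 5.79 in unstimulated GM-DC, 5.88, 5.86 and 5.04 in GM-DC with LPS, 8.91, 8.52 and 9.01 in unstimulated GM-MF, and 8.27, 7.60 and 8.15 in GM-MF with LPS: every GM-MF array lay above every GM-DC array, the responses were -0.77 and -0.80, and the difference, 0.04 (95% interval -0.76 to 0.83, adjusted p = 0.984), was not called. Cd14, which hands LPS to the receptor, likewise had no called difference, at -0.03 (95% interval -0.44 to 0.38, adjusted p = 0.972). Of 21 measured receptor and adaptor genes 3 had a higher GM-DC response (1 without GM-DC LPS array 2) and 1 a lower one, against 4.53% and 3.06% of all genes. Those were Ikbke, a kinase that activates IRF3, with 1.07 (95% interval 0.65 to 1.48, adjusted p = 0.00279), the adaptors Ticam2 and Myd88, and Peli1, a ubiquitin ligase, with -1.30 (95% interval -1.57 to -1.02, adjusted p = 1.45e-05). Ticam2 lost its call without any 1 of 6 arrays and Myd88 without either of 2.

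Several NF-kB subunits and feedback genes had the higher response in GM-MF. Of 18 measured NF-kB subunits and feedback genes, 7 had a lower GM-DC response and 1 (Bcl3) a higher one (3 without unstimulated GM-DC array 3, and 2 with array weights). Over all genes the shares were 3.06% and 4.53%. Rel, the subunit that drives Il12b and maturation genes, was measured at 11.32, 11.36 and 11.39 in unstimulated GM-DC, 11.01, 11.05 and 11.40 in GM-DC with LPS, 9.21, 9.29 and 9.05 in unstimulated GM-MF, and 10.77, 10.67 and 10.60 in GM-MF with LPS. GM-DC held the higher level with and without LPS, GM-MF rose towards it, and the difference was -1.70 (95% interval -2.04 to -1.35, adjusted p = 1.11e-05). Nfkb2 and Traf1 had differences of -0.97 and -0.78. Socs3, which blocks signalling downstream of interleukin 6, was measured at 5.61, 5.29 and 5.42 in unstimulated GM-DC, 6.59, 6.64 and 6.25 in GM-DC with LPS, 6.49, 6.80 and 6.19 in unstimulated GM-MF, and 9.29, 9.60 and 9.41 in GM-MF with LPS. It rose in both cell types, and the difference was -1.88 (95% interval -2.36 to -1.41, adjusted p = 6.97e-05); the related Cish and Socs1 differed by -1.71 and -1.56, with no call in GM-DC. Their list of 19 mRNA decay genes and cytokine signal inhibitors split nearly evenly, with 4 members of higher and 5 of lower GM-DC response. Those were 21.1% and 26.3% of the list, against 4.53% and 3.06% of all genes. Nfkbia, the main inhibitor of NF-kB, rose in both (0.90 in GM-DC and 0.80 in GM-MF), a difference of 0.10 (95% interval -0.23 to 0.42, adjusted p = 0.842).

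Immediate early factors and regulators of growth signalling moved both ways. Egr1, a transcription factor of growth signalling, was measured at 4.87, 5.0 and 5.39 in unstimulated GM-DC, 7.31, 7.60 and 7.60 in GM-DC with LPS, 7.65, 7.81 and 7.71 in unstimulated GM-MF, and 7.69, 7.84 and 7.86 in GM-MF with LPS. It rose in GM-DC to just below the level that GM-MF held with and without LPS, a difference of 2.35 (95% interval 1.95 to 2.75, adjusted p = 2.34e-06). Myc, the growth regulator, had values of 5.20, 5.37 and 5.70 in unstimulated GM-DC, 6.21, 6.38 and 6.30 in GM-DC with LPS, 8.30, 7.97 and 8.48 in unstimulated GM-MF, and 6.54, 6.04 and 6.52 in GM-MF with LPS. It rose in GM-DC and fell in GM-MF until both groups with LPS overlapped, a difference of 2.76 (95% interval 2.26 to 3.26, adjusted p = 3.67e-06). Nr4a3, an orphan nuclear receptor, rose in GM-MF alone among calls, with -2.65 (95% interval -3.58 to -1.72, adjusted p = 0.00121), or -3.11 (adjusted p = 2.58e-05) without unstimulated GM-MF array 2. Dusp6, a phosphatase of ERK, fell in GM-MF (-2.10) and was not called in GM-DC (-0.26), a difference of 1.84 (95% interval 1.26 to 2.42, adjusted p = 0.000513). Zfp36l1, which promotes decay of AU-rich messages, fell in both cell types and further in GM-MF (-0.64 in GM-DC and -2.26 in GM-MF), a difference of 1.62 (95% interval 1.24 to 2.01, adjusted p = 4.26e-05).

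**Figure D5:**
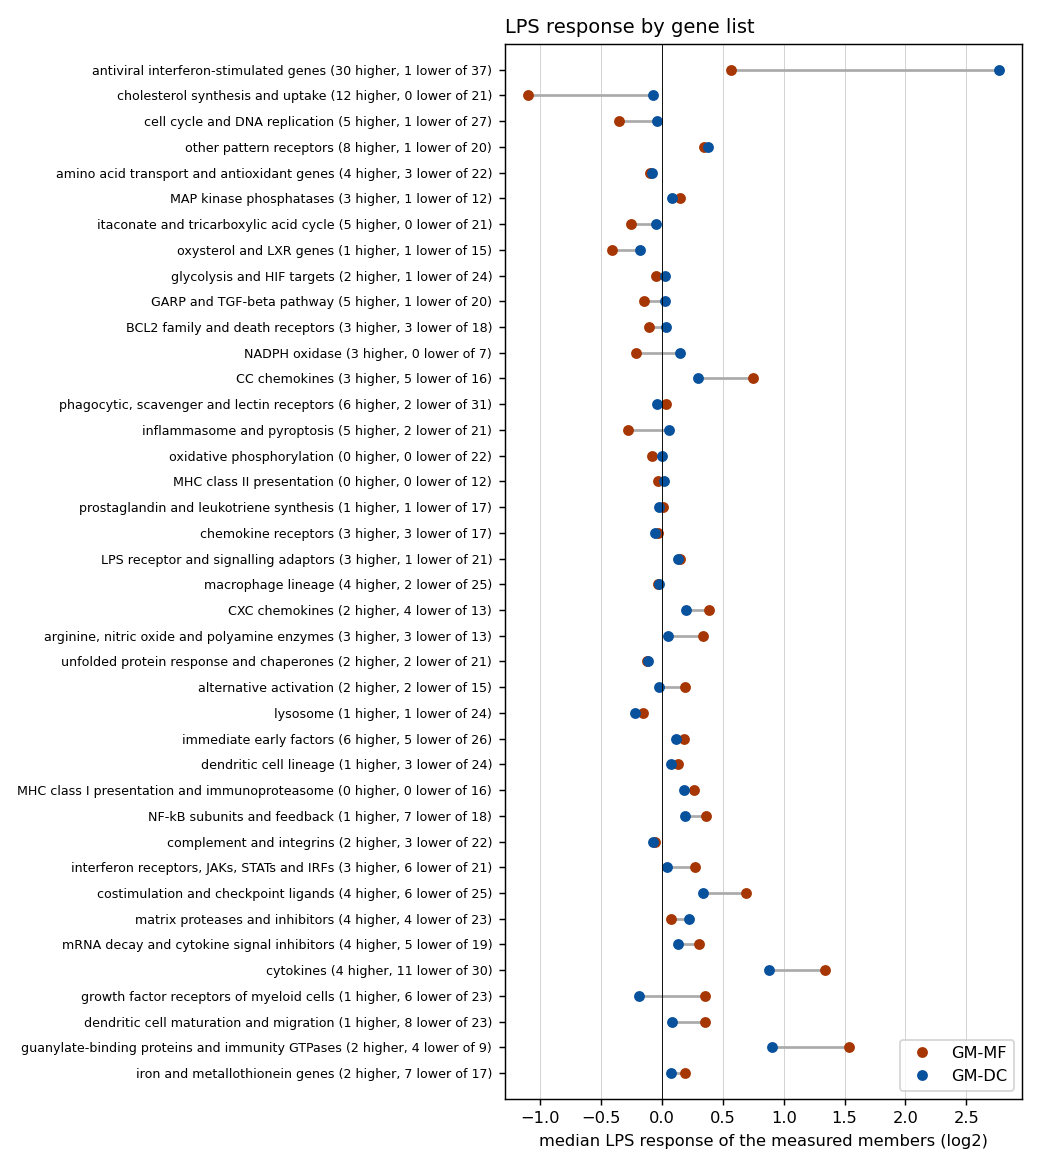
Each row is 1 of 40 gene lists, ordered by the median difference, with the median LPS response of its measured members in GM-MF (brown) and GM-DC (blue) as log2; the numbers after each name count the members with a higher and a lower GM-DC response. The antiviral and cholesterol lists show the widest gaps with GM-DC to the right, at medians of 2.77 against 0.568 and -0.0760 against -1.10.

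Opposite movements of at least 2-fold in both arms were found for 9 genes, 8 of which rose in GM-DC and fell in GM-MF. All 103 genes called in both arms with opposite signs were also called in the difference. The difference subtracts the GM-MF response from the GM-DC response, so responses of opposite sign add up in it. Those calls thus nearly followed from the selection and are no further evidence of opposite movement. Lrrc32 (GARP), which holds latent TGF-beta at the cell surface, was measured at 4.71, 4.60 and 4.32 in unstimulated GM-DC, 6.47, 6.37 and 5.81 in GM-DC with LPS, 7.11, 7.63 and 6.80 in unstimulated GM-MF, and 5.47, 4.72 and 5.08 in GM-MF with LPS. No 2 groups overlapped, and the difference was 3.76 (95% interval 3.08 to 4.45, adjusted p = 4.04e-06). Nrros, which holds latent TGF-beta on myeloid cells, was measured at 7.71, 7.79 and 7.92 in unstimulated GM-DC, 8.89, 9.08 and 8.61 in GM-DC with LPS, 8.43, 8.31 and 8.47 in unstimulated GM-MF, and 7.28, 7.24 and 7.11 in GM-MF with LPS. GM-DC with LPS were the highest group and GM-MF with LPS the lowest, a difference of 2.25 (95% interval 1.89 to 2.61, adjusted p = 1.55e-06). Plau, the urokinase that activates plasminogen, was measured at 4.83, 4.81 and 4.68 in unstimulated GM-DC, 6.39, 6.68 and 5.92 in GM-DC with LPS, 9.73, 9.58 and 9.99 in unstimulated GM-MF, and 8.36, 7.97 and 8.61 in GM-MF with LPS. It came closer between the cell types with LPS but did not overlap, a difference of 3.01 (95% interval 2.45 to 3.57, adjusted p = 4.53e-06); its receptor Plaur differed by 1.57.

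The other genes of this kind had various roles. Fgr, a Src-family kinase of myeloid cells, differed by 2.90 (95% interval 2.37 to 3.43, adjusted p = 4.36e-06) and Rasa3, which switches off small GTPases, by 2.42 (95% interval 1.95 to 2.90, adjusted p = 7.23e-06). Ccnd1 (cyclin D), which starts the cell cycle, differed by 2.60 (95% interval 1.99 to 3.20, adjusted p = 3.48e-05), Nrp1, a semaphorin co-receptor, by 2.17 (95% interval 1.41 to 2.93, adjusted p = 0.00120), and Ncapg2, a condensin subunit, by 2.08 (95% interval 1.49 to 2.66, adjusted p = 0.000187). P3h2, a prolyl hydroxylase of collagen, was the only one that fell in GM-DC and rose in GM-MF. It was measured at 6.45, 6.77 and 5.82 in unstimulated GM-DC, 4.98, 4.84 and 4.64 in GM-DC with LPS, 3.64, 3.99 and 3.51 in unstimulated GM-MF, and 5.03, 5.05 and 4.93 in GM-MF with LPS, and the groups with LPS overlapped at a difference of -2.82 (95% interval -3.40 to -2.23, adjusted p = 1.29e-05). Further members of the TGF-beta list with a called difference were the receptors Tgfbr1 (1.43) and Tgfbr2 (0.69) in the direction of Lrrc32, and Itgb8, an integrin chain that activates latent TGF-beta, in the other, by -1.57 (95% interval -2.36 to -0.77, adjusted p = 0.0160). In all, 5 of 20 measured members of that list had a higher and 1 a lower GM-DC response (2 lower after cyclic loess). Those were 25% and 5% of the list, against 4.53% and 3.06% of all genes.

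Most genes of cholesterol synthesis and uptake fell in GM-MF, and few were called in GM-DC. Of 21 measured members, 12 had a higher GM-DC response and none a lower one, against 4.53% and 3.06% of all genes. With LPS, 15 fell in GM-MF and 3 in GM-DC, and none rose in GM-MF against 2 in GM-DC. Over all genes 10.8% fell in GM-MF and 4.49% in GM-DC, and 6.54% and 5.23% rose. The median responses were -0.0760 in GM-DC and -1.10 in GM-MF, with a median difference of 0.843 against 0.0212 over all genes. The mean level of the list was 7.98, 7.76 and 8.09 in unstimulated GM-DC, 7.86, 7.75 and 7.91 in GM-DC with LPS, 7.96, 7.71 and 7.89 in unstimulated GM-MF, and 7.13, 7.02 and 6.91 in GM-MF with LPS. Only the last group stood apart from the rest.

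Hmgcs1, an early enzyme of the mevalonate pathway, is shown because its promoter alone in this list held a match of the sterol element. That element, TCACNCCAC, was searched on both strands and is the kind of sequence that SREBP factors bind. The 1 window was 4.76% of 21 windows of the list, against 1.18% of all windows. A match stood in 0.498% of 402 windows of genes with an at least 2-fold higher GM-DC response. For those with a lower one it was 1.54% of 259 windows. The Hmgcs1 stretch is chr13:119690181-119690260 (plus strand, 170 to 91 bases before the start), with the match in capitals.
Hmgcs1: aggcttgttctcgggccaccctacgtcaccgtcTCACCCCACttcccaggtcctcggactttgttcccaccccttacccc
Hmgcs1 was measured at 9.15, 8.83 and 9.46 in unstimulated GM-DC, 9.22, 8.88 and 9.23 in GM-DC with LPS, 9.26, 9.09 and 9.05 in unstimulated GM-MF, and 7.96, 7.69 and 7.60 in GM-MF with LPS. The 3 other groups overlapped and GM-MF with LPS lay below them, a difference of 1.34 (95% interval 0.87 to 1.81, adjusted p = 0.00121). Stard4, which carries cholesterol between membranes, rose in GM-DC and fell in GM-MF (0.49 in GM-DC and -1.18 in GM-MF), a difference of 1.67 (95% interval 1.27 to 2.07, adjusted p = 5.12e-05). The enzymes Msmo1, Hsd17b7, Sqle, Fdft1, Lss and Sc5d each fell in GM-MF and were not called in GM-DC, with differences from 1.16 (Lss) to 1.54 (Msmo1). Dhcr7, the last enzyme of the pathway, fell in both (-0.82 in GM-DC and -0.75 in GM-MF), and its difference, -0.07, was not called.

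Other genes fell in GM-MF as well. Cxcr4, the receptor that retains cells in the marrow, fell in both cell types and further in GM-MF (-1.06 in GM-DC and -2.74 in GM-MF), a difference of 1.68 (95% interval 1.32 to 2.03, adjusted p = 1.41e-05). Ccr2, the receptor that brings monocytes into tissue, was measured at 2.82, 3.30 and 3.17 in unstimulated GM-DC, 3.09, 3.28 and 2.94 in GM-DC with LPS, 8.07, 7.87 and 8.05 in unstimulated GM-MF, and 6.0, 5.85 and 5.94 in GM-MF with LPS. It fell in GM-MF with no overlap, stayed under the array medians in GM-DC, and differed by 2.07 (95% interval 1.68 to 2.46, adjusted p = 5.23e-06). Asns, which makes asparagine, and Ptger4, a receptor of prostaglandin E, fell in GM-MF and had differences of 2.08 (95% interval 1.64 to 2.51, adjusted p = 1.3e-05) and 1.63. Bcl2l1, a survival factor, rose in GM-DC and was not called in GM-MF (2.32 in GM-DC and -0.29 in GM-MF), a difference of 2.61 (95% interval 2.05 to 3.16, adjusted p = 1.52e-05).

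Further large differences lay in surface receptors, secreted peptides and enzymes. Clec4e (Mincle), a lectin receptor for microbial and damage-derived glycolipids, was measured at 4.33, 5.29 and 5.81 in unstimulated GM-DC, 8.61, 8.75 and 8.21 in GM-DC with LPS, 11.95, 11.69 and 11.94 in unstimulated GM-MF, and 12.14, 11.96 and 12.21 in GM-MF with LPS. Its GM-DC arrays with LPS lay between the unstimulated ones and all GM-MF arrays, a difference of 3.14 (95% interval 2.33 to 3.94, adjusted p = 8.41e-05). Cd82, a tetraspanin, rose in GM-DC and was not called in GM-MF: its values were 7.42, 7.32 and 7.20 in unstimulated GM-DC, 10.68, 10.75 and 9.88 in GM-DC with LPS, 8.73, 8.95 and 8.62 in unstimulated GM-MF, and 8.57, 8.53 and 8.41 in GM-MF with LPS. GM-DC with LPS stood above all other arrays, a difference of 3.39 (95% interval 2.85 to 3.94, adjusted p = 1.55e-06). Layn, a hyaluronan receptor, differed by 3.13 (95% interval 2.38 to 3.88, adjusted p = 4.64e-05). On the other side stood U90926, a transcript with the largest negative difference of all the named genes, at 3.85, 3.68 and 3.43 in unstimulated GM-DC, 4.80, 5.21 and 5.67 in GM-DC with LPS, 5.46, 5.68 and 5.57 in unstimulated GM-MF, and 11.53, 11.41 and 11.65 in GM-MF with LPS. GM-MF with LPS stood apart from all other arrays, and the difference was -4.39 (95% interval -4.93 to -3.86, adjusted p = 1.51e-07). Penk, the precursor of enkephalins, Nts, that of neurotensin, and Edn1, that of endothelin, rose in GM-MF and had differences of -3.27 (95% interval -3.99 to -2.54, adjusted p = 2.25e-05), -2.95 (95% interval -3.41 to -2.49, adjusted p = 1.27e-06) and -2.97 (95% interval -3.86 to -2.09, adjusted p = 0.000320). That of Edn1 was -3.42 (adjusted p = 5.71e-06) without unstimulated GM-MF array 2. Lox, Thbs4, Slc1a2, Serpinb1a and Zfp558 did so too, with differences from -3.10 (Zfp558) to -2.78 (Serpinb1a).

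Some genes rose in both cell types by amounts that limma did not tell apart. Of 87 genes that rose at least 2-fold in both, 56 had no called difference. The rest were called. Among all 439 genes that rose in both, 128 had a called difference. The 7.59% called over all genes is an unlike base, as those genes were not picked for a response. The 5 that rose by at least 2 log2 units in both with a difference under 0.3 were Ccl4, Cd40, Il1b, Nfkbiz and Pla1a. Il1b, the pyrogenic cytokine, was measured at 4.82, 4.92 and 5.26 in unstimulated GM-DC, 6.62, 7.20 and 7.40 in GM-DC with LPS, 9.51, 9.74 and 9.46 in unstimulated GM-MF, and 11.89, 11.70 and 11.99 in GM-MF with LPS, and its difference was -0.21 (95% interval -0.75 to 0.32, adjusted p = 0.763). Cd40, the receptor by which T cells license dendritic cells, was measured at 8.80, 8.55 and 9.07 in unstimulated GM-DC, 11, 11.13 and 10.76 in GM-DC with LPS, 9.14, 9.99 and 9.16 in unstimulated GM-MF, and 11.58, 11.55 and 11.54 in GM-MF with LPS, with a difference of 0.03 (95% interval -0.56 to 0.62, adjusted p = 0.982). The intervals of Ccl4 (-0.60 to 0.78), Nfkbiz (-0.38 to 0.82) and Pla1a (-0.49 to 0.43) give the sizes of difference not told apart from 0. Il1a, Cd86, Cd274 and Ptgs2 also rose in both with no called difference (0.29, 0.07, -0.16 and -0.57). Their widest interval, that of Ptgs2, ran from -1.50 to 0.37.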

How the data were processed

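RNA of 12 samples was hybridised to Affymetrix Mouse Gene 1.0 arrays. The deposited log2 values came from the authors' RMA run, with R 3.0.2 named in the submitters' processing notes. Their log base was taken from the range, 1.18 to 13.7. The genome build is not given in the sources used here. Of 35556 probe sets, 21789 carried 1 gene symbol, 1621 several and 12146 none. For 999 genes with several probe sets the one with the highest mean was kept, which gave 19938 genes.

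The values were fitted as deposited, without a filter, by limma 3.58.1 in R 4.3.3 with 4 group means and 8 residual degrees of freedom. The GM-DC response minus the GM-MF response, and each response, were tested two-sided with Benjamini-Hochberg adjustment over all genes. The number of arrays, 3 a group, limits the precision: the median standard error of a difference was 0.177. In simulated data of 19938 genes with this spread, the difference was recovered for 10% of genes changed by 0.5, 68% of those changed by 1, 94% at 2 and 100% at 3 (log2). The simulation changed 50 genes at each size, with independent normal noise, while 1514 genes were called in the deposited data. Its adjusted threshold was thus not that of the deposited data, and the rates need not carry over.

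Genes were named by a rule: the 20 largest called differences each way (clone names aside), up to 4 called members per list, genes with opposite 2-fold responses, genes with like rises of 4-fold or more, and a fixed set of LPS genes. A further 32 genes outside that rule were chosen after their values were seen. The gene lists and the rule were themselves chosen with earlier results of these data known. Promoter and miRNA sequences come from RefSeq (GRCm38.p6), and 15614 of the 19938 genes had a promoter window.

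Same-numbered arrays of a cell type deviated together (correlation of residuals over genes 0.119 to 0.363 in GM-DC and 0.104 to 0.257 in GM-MF), while between cell types they ran from -0.168 to 0.233. From the data alone the numbers may pair arrays within a cell type. The main fit used no such pairing, and the replicate blocks tried it as an alternative. In GM-DC, arrays 1 and 2 also correlated across numbers (0.120 and 0.165), so their pairing is weak. Alternatives covered scaling, filters, the probe set rule, the variance model, array weights, replicate blocks, the threshold and each array left out.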

Additional observations from a re-analysis of the deposited data

Results flagged for a closer look

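The LPS responses of the 2 cell types differed for 1514 genes in limma's test of the difference itself. For 9 of these both responses were called, at least 2-fold in size and opposite in direction. Lrrc32, the anchor of latent TGF-beta, differed by 3.76 and Plau, the urokinase, by 3.01. The kinase Fgr differed by 2.90, Ccnd1 (cyclin D) by 2.60 and the GTPase regulator Rasa3 by 2.42. Nrros, Nrp1 and Ncapg2 had differences of 2.25, 2.17 and 2.08, and P3h2 one of -2.82. These values are log2 and each gene was measured on 3 arrays a group.

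Probe sets outside the gene table also differed. Fitted over all 35556 probe sets, 175 of the 12146 with no symbol (1.44%) and 40 of the 1621 with several symbols (2.47%) were called in the difference, against 5.34% of those with 1 symbol. They were not named, and what they measure is not reported here.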

How the results depend on the processing

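The counts of the difference over all genes stayed within 1.5 times their value under the alternative scalings, filters, probe set rule, variance models, array weights and blocks. Counts within lists, many of them small, moved further, and the text gives only some of these moves. Maturation genes with a higher GM-DC response went from 1 to 2 with a variance trend. At an adjusted p under 0.01 there were 862 genes, 520 with the higher and 342 with the lower response in GM-DC. Leaving out each array in turn gave 1180 to 1748 called genes, and 521 to 941 genes that fell in GM-DC. The share of called genes with the higher GM-DC response ran from 53.5% (cyclic loess) to 66.2% (without GM-DC LPS array 3). With the replicate block within cell type 1939 genes were called, and with the block over all groups 1652. Among the named genes the block within cell type ended the call of Nod2 and added that of S100a8 (adjusted p 0.0515 without and 0.0390 with the block), and changed no other call. Of 185 named genes that were called, 167 kept the call without every single array, 18 lost it without at least 1, and none changed direction under any alternative. Signals below the array medians of 4.41 to 4.54 limit the folds that start from them.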

Other observations

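The transcript of Mir155, the host of a microRNA known to be induced through Toll-like receptors, rose in both cell types. It was singled out after its values were seen. Its probe set reads the gene's transcript and not a mature arm. The mature arms are encoded on the plus strand at chr16:84714143-84714165 and chr16:84714182-84714202 (GRCm38.p6, RefSeq), and are shown with the seed, bases 2 to 8, in capitals because the seed sets which messages they pair with.
mmu-miR-155-5p: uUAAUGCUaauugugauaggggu
mmu-miR-155-3p: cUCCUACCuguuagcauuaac
Mir155 was measured at 7.85, 7.45 and 7.42 in unstimulated GM-DC, 9.82, 9.79 and 9.11 in GM-DC with LPS, 6.16, 6.16 and 5.91 in unstimulated GM-MF, and 9.32, 9.31 and 9.38 in GM-MF with LPS. GM-DC started higher and the groups with LPS overlapped. The responses came to 2.0 in GM-DC and 3.26 in GM-MF, a difference of -1.26 (95% interval -1.78 to -0.74, adjusted p = 0.00399) in limma.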
